A study of Mus musculus with 6 samples.

Results

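The Elovl genes encode the fatty acid elongases of the endoplasmic reticulum, and the mouse family has 7 of them, Elovl1 to Elovl7. All 7 were found by symbol among the 45777 genes of the deposited table, and 4 of them (Elovl1, Elovl5, Elovl6 and Elovl7) passed the filter on low counts and were tested. The libraries came from epididymal white adipose tissue of C57BL/6 mice that had fasted for 24 h. Each group had 3 libraries, and floxed Pak4 alleles were common to both groups. The libraries labelled KO are from mice that also carried Adipoq-Cre, a transgene that drives Cre recombinase from the adiponectin promoter and so acts in adipocytes. The libraries labelled WT are from floxed mice without that transgene, so Cre itself differs between the groups together with Pak4. Age is not given in the labels, and the replicate numbers are not said to be separate mice, so p-values measure the spread between libraries, which may be technical.

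An elongase condenses an activated fatty acid with malonyl-CoA, which is the slow step of a cycle that lengthens the chain by a pair of carbons. A ketoacyl reductase, a dehydratase and an enoyl reductase shared by all chain lengths complete the cycle. The elongases differ in the chains they accept, so their relative abundance shapes which fatty acids a cell can make. In fat, Elovl6 acts on the product of fatty acid synthase and, like that enzyme, is known as a target of the lipogenic transcription factor SREBP1c, which is held low in fasting.

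Total counts ran from 65230001 to 70830615 in the libraries labelled KO and from 62854465 to 72005658 in those labelled WT. Adipocyte markers were abundant, with Adipoq at 4550 to 6350 CPM in the libraries labelled KO and 3850 to 4850 CPM in those labelled WT, while 4 of 9 markers of epididymal epithelium and sperm (Lcn5, Lcn8, Lcn9 and Defb48) had no count in any library and all 9 summed to at most 0.765 CPM. CPM are counts scaled to a common library size with TMM factors. Pak4, the targeted gene, had 815, 744 and 675 counts in the libraries labelled KO, against 339, 337 and 358 in those labelled WT (log2 fold change 0.96 ± 0.14 SE, adjusted p 0.0898 in edgeR), so its level under the KO label was the higher one. Its counts are totals for the gene and do not separate the floxed exons. Because Pak4 goes against the labels, a direction given here goes by label and says nothing certain of genotype. The library labelled KO 1 lay between the other libraries labelled KO and those labelled WT on the first principal component (-1.85, against 40.9 and 53.5 for KO 2 and KO 3, and -53.5 to -12.3 for the libraries labelled WT). Without KO 1, edgeR called 3.49% of 18237 genes lower and 2.08% higher, Pak4 among those higher (0.85 ± 0.14, adjusted p 0.0313).

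The members share a catalytic histidine box, in which 3 histidines are set around 2 other residues. It is shown because it is the sequence feature that the name-based choice of members did not use and because it divides the family by the residues between the histidines. In the longest coding sequence of each member in GENCODE vM21 (GRCm38), 1 such box was found per member, within proteins of 267 (Elovl6) to 312 (Elovl4) residues. The 15 bases of each box follow, 5′ to 3′ on the coding strand, with the histidine codons in capitals.
Elovl1: CATgtcttcCACCAC
Elovl2: CATgtctatCACCAC
Elovl3: CACtggtacCACCAC
Elovl4: CACgtgtacCACCAC
Elovl5: CATgtctacCACCAC
Elovl6: CACtggtacCACCAC
Elovl7: CATgtcttcCATCAT

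The 15 bases are identical in Elovl3 and Elovl6, whose second codon is tgg (tryptophan). The other 5 members have gtc or gtg (valine) there. The third codon is ttc (phenylalanine) in Elovl1 and Elovl7 and tat or tac (tyrosine) in the other 5. Elovl6, the member with the largest difference between the labels, thus shares its box with Elovl3, which had almost no counts in this tissue.

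Elovl5 and Elovl1 made up nearly all elongase transcripts of the fasted fat pad. By the authors' TPM, which is scaled for transcript length and so allows genes to be compared, both together held 94.2%, 94.5% and 97.6% of the summed Elovl TPM in the libraries labelled KO 1, 2 and 3, against 92.5%, 90.7% and 91.8% in those labelled WT 1, 2 and 3. Elovl5 had the highest mean, at 45.7 ± 5.59 TPM in the libraries labelled KO and 49.0 ± 1.39 TPM in those labelled WT (SD, n = 3 each). Elovl1 followed at 42.7 ± 3.74 TPM in the libraries labelled KO and 44.6 ± 0.194 TPM in those labelled WT. The order of these neighbours was not separated beyond the spread in the libraries labelled KO, where KO 1 had more Elovl1 than Elovl5 (43.0 and 39.4 TPM), whereas all 3 libraries labelled WT had more Elovl5. Elovl6 came next with 2.97 ± 1.04 TPM in the libraries labelled KO and 6.61 ± 0.922 TPM in those labelled WT, and Elovl7 after it with 1.14 ± 0.744 and 1.78 ± 0.0743 TPM in the libraries labelled KO and WT. Elovl6 was above Elovl7 in all 6 libraries. Elovl4, Elovl2 and Elovl3 stood last, each at 0.122 TPM or less in every library.

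**Figure D1:**
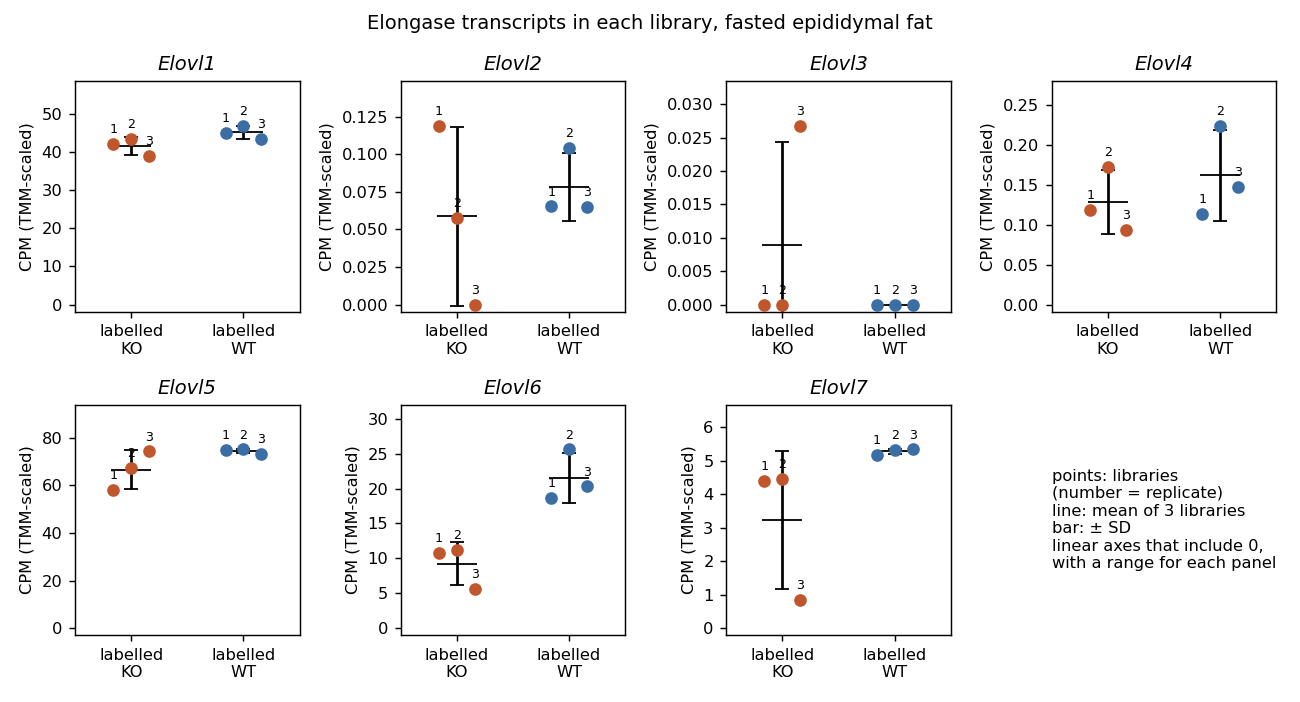
CPM (TMM-scaled, linear axes) of each elongase gene in the 3 libraries labelled KO and the 3 labelled WT, with the mean and SD of each group. Elovl6 lies between 5.68 and 11.2 CPM in the libraries labelled KO, all below the lowest library labelled WT at 18.7 CPM, and Elovl7 is low in the library labelled KO 3 alone, at 0.846 CPM.

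Elovl6, which lengthens palmitate to stearate and palmitoleate to vaccenate, had the largest difference of the tested elongases. The gene (Gene ID 170439) is protein-coding and lies on chromosome 3 at 129532386 to 129638495 on the plus strand (GRCm38.p6, the assembly of mm10). Its counts were 726, 782 and 423 in the libraries labelled KO 1, 2 and 3, against 1143, 1718 and 1246 in those labelled WT 1, 2 and 3. After scaling these were 10.8, 11.2 and 5.68 CPM in the libraries labelled KO and 18.7, 25.6 and 20.3 CPM in those labelled WT. The groups did not overlap, and KO 3 was the lowest library and WT 2 the highest. The means were 9.23 ± 3.08 CPM in the libraries labelled KO and 21.5 ± 3.65 CPM in those labelled WT (SD, n = 3 each), a ratio of 0.428. The log2 fold change was -1.22 ± 0.26 (SE; 95% interval -1.84 to -0.60), and the adjusted p of 0.135 in edgeR's quasi-likelihood test did not pass 0.05. DESeq2 called it lower with an adjusted p of 5.83e-04, and over all alternatives the adjusted p ranged from 5.83e-04 to 0.404.

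Elovl7, which acts on saturated and monounsaturated long chains, differed through 1 library. The gene (Gene ID 74559) is on chromosome 13 at 108214326 to 108287109, plus strand. Elovl7 had 295, 311 and 63 counts (4.38, 4.46 and 0.846 CPM) in the libraries labelled KO, against 317, 356 and 327 counts (5.17, 5.31 and 5.33 CPM) in those labelled WT. KO 3 was 5.19-fold below the next lowest library, while KO 1 and KO 2 lay just under the libraries labelled WT, whose SD was 0.0855 CPM. The log2 fold change was -0.71 ± 0.54 (95% interval -2.0 to 0.58; adjusted p 0.494 in edgeR). Without KO 3 it was -0.25 ± 0.14.

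Elovl1, which makes the saturated and monounsaturated very long chains that go into sphingolipids, was close between the labels. The gene (Gene ID 54325) is on chromosome 4 at 118426874 to 118432953, plus strand. It had 42.2, 43.4 and 38.9 CPM in the libraries labelled KO, against 45.0, 46.9 and 43.5 CPM in those labelled WT. Each library labelled KO was below each labelled WT, with KO 2 and WT 3 only 43.4 and 43.5 CPM. The log2 fold change was -0.12 ± 0.08 (95% interval -0.31 to 0.07; adjusted p 0.439 in edgeR), and with scaling by library size alone it was 0.00 ± 0.09.

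Elovl5, which lengthens polyunsaturated chains made from dietary linoleate and alpha-linolenate and also palmitoleate, overlapped between the labels. The gene (Gene ID 68801) is on chromosome 9 at 77917365 to 77984519, plus strand. It had 58.2, 67.3 and 74.3 CPM in the libraries labelled KO, against 74.8, 75.1 and 73.3 CPM in those labelled WT. KO 3, the lowest library for Elovl6, Elovl7 and Elovl1, was the highest library labelled KO for Elovl5 and within the range of the libraries labelled WT. The log2 fold change was -0.16 ± 0.10 (95% interval -0.40 to 0.08; adjusted p 0.413 in edgeR), and -0.07 without KO 1. Neither the interval of Elovl1 nor that of Elovl5 reaches the value of Elovl6.

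Of the 4 tested elongases, 0 were called in edgeR at an adjusted p under 0.05, in a comparison that called 0.0168% of 17820 genes. Without KO 1, when 1016 genes passed, again 0 of the 4 did. In that fit Elovl6 stood at -1.35 ± 0.31 (adjusted p 0.0562 in edgeR), Elovl7 at -0.99 ± 0.62, Elovl1 at -0.13 ± 0.09 and Elovl5 at -0.07 ± 0.08. All 4 had fold changes below 0 under TMM, RLE and library-size scaling, though Elovl1 was 0.00 after rounding with library size alone. DESeq2 called 1 of the 4 lower (Elovl6) and 0 higher, where it called 3.86% of all genes lower and 2.61% higher. For 3 of the 4 (Elovl1, Elovl6 and Elovl7) all libraries labelled KO were below all labelled WT in CPM, as were 12.5% of all genes tested. All 4 were kept by their counts in both groups, and the filter removed the other 3 members, which are given by their counts alone.

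**Figure D2:**
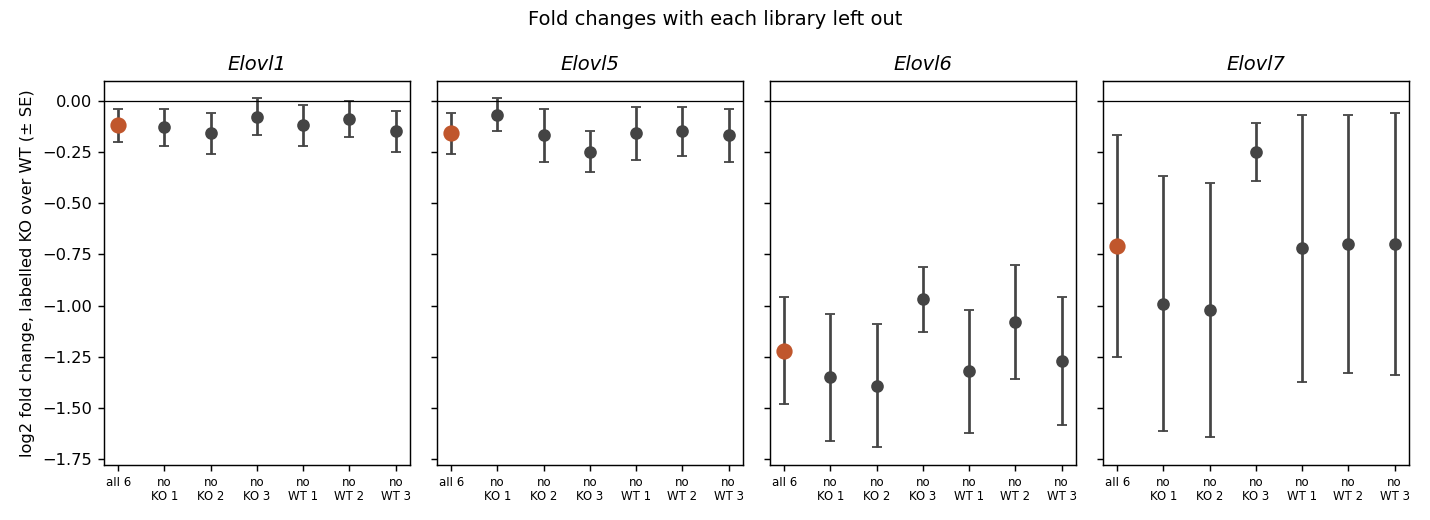
Log2 fold change (labelled KO over labelled WT, ± SE) of the 4 tested elongases with all 6 libraries (orange) and with each library left out in turn (grey). Elovl6 stays between -1.39 and -0.97, while Elovl7 moves to -0.25 when the library labelled KO 3 is left out.

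Elovl2, Elovl3 and Elovl4 were at the limit of detection at these depths. Elovl4, which makes the very longest chains of retina, skin and brain (chromosome 9, 83778692 to 83806305, minus strand), had 8, 12 and 7 counts in the libraries labelled KO and 7, 15 and 9 in those labelled WT. The sums were 27 in the libraries labelled KO (exact Poisson 95% interval 17.8 to 39.3) and 31 in those labelled WT (21.1 to 44.0). Elovl2, which extends polyunsaturated chains on the way to docosahexaenoate in liver (chromosome 13, 41182382 to 41220403, minus strand), had 8, 4 and 0 counts in the libraries labelled KO and 4, 7 and 4 in those labelled WT. Neither gene showed a difference detectable at this depth. Elovl3, an elongase of brown fat, skin and liver (chromosome 19, 46131897 to 46135694, plus strand), had 2 counts in the library labelled KO 3 and 0 in each of the other 5 libraries. A count of 0 allows up to 3 counts, or 0.0448 to 0.0490 CPM in the libraries labelled WT, so no fold is given. Such intervals and limits cover counting error only, since reads copied by PCR are counted separately. Brown adipocyte markers were also low: Ucp1 reached 0.208 CPM in the libraries labelled KO and 0.375 CPM in those labelled WT, and Zic1 had no count. The 8 brown markers summed to 11.8 to 18.9 CPM in the libraries labelled KO and 18.8 to 22.6 CPM in those labelled WT.

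The summed elongase TPM was lower in every library labelled KO, at 87.4, 99.6 and 91.0 in KO 1, 2 and 3, against 101, 102 and 103 in WT 1, 2 and 3. The means were 92.7 ± 6.22 and 102 ± 1.00 TPM in the libraries labelled KO and WT (two-sided exact permutation p = 0.1, the smallest that 3 libraries against 3 can give). The share of Elovl6 in that sum was 3.9%, 3.74% and 1.96% in the libraries labelled KO, against 5.66%, 7.44% and 6.29% in those labelled WT. Its mean was 3.20 ± 1.08% in the libraries labelled KO and 6.46 ± 0.901% in those labelled WT, a difference of -3.27 percentage points (exact permutation p = 0.1, again the smallest possible). Elovl5 and Elovl2, which extend polyunsaturated chains, together held 45.1%, 48.0% and 55.0% in the libraries labelled KO, against 48.7%, 46.7% and 48.7% in those labelled WT. That share did not separate the labels, with a difference of 1.33 points (exact permutation p = 0.9) that was -1.47 points without KO 3. In bulk tissue, fewer cells of a type and less RNA per cell cannot be told apart.

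**Figure D3:**
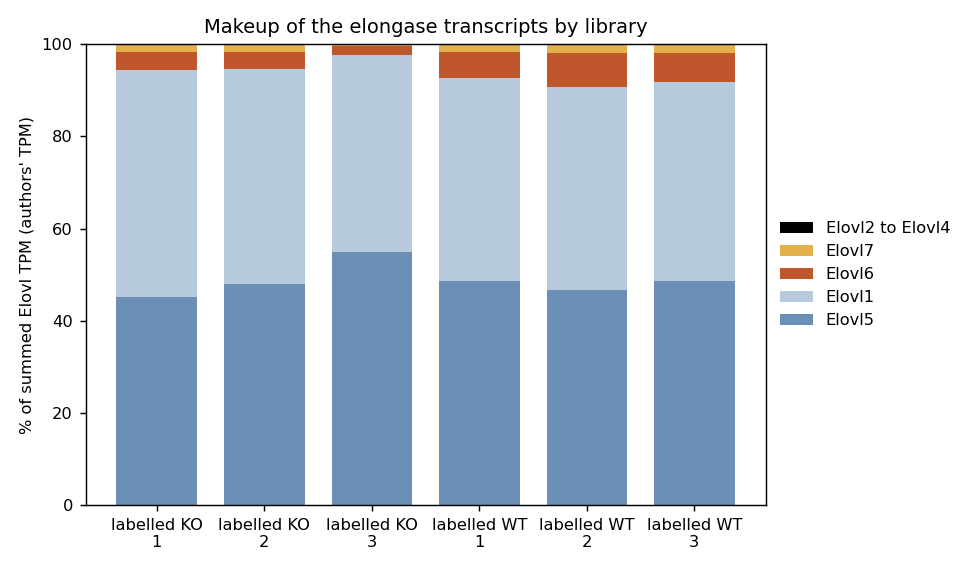
Share of each elongase in the summed Elovl TPM of each library, in percent, libraries labelled KO on the left and labelled WT on the right. The Elovl6 band spans 1.96% to 3.9% in the libraries labelled KO and 5.66% to 7.44% in those labelled WT, and Elovl2 to Elovl4 together are too small to be seen.

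Some sums of cell type markers stood apart between the labels, though 0 of the markers below passed in edgeR. The summed level of 12 mature adipocyte markers overlapped, at 61400 to 64800 CPM in the libraries labelled KO and 64100 to 69400 CPM in those labelled WT. Taken singly, 9 of the 12 had log2 fold changes below 0, among them Lpl (-0.57) and Lep (-1.14). The other 3, Adipoq (0.25), Pparg (0.61) and Cfd (1.02), were above 0, and the median was -0.27. Cfd, a large part of the sum, had 13300, 15300 and 18400 CPM in the libraries labelled KO, against 11400, 4610 and 7140 CPM in those labelled WT. The overlap of the sum therefore does not show that the other markers were alike. Without overlap between the groups, 2 were lower and 2 higher in the libraries labelled KO, and 0 passed in edgeR. The sum of 10 endothelial markers was 243 to 262 CPM in the libraries labelled KO and 287 to 368 CPM in those labelled WT. The sum of 5 B cell and plasma cell markers was 23.5 to 36.3 CPM in the libraries labelled KO and 8.48 to 19.4 CPM in those labelled WT. Sums of 10 macrophage markers (1310 to 1980 CPM in the libraries labelled KO, 1310 to 1630 CPM in those labelled WT) and 8 mesothelial markers (782 to 966 CPM in the libraries labelled KO, 502 to 811 CPM in those labelled WT) overlapped. Taken singly, all 10 macrophage markers had fold changes above 0, with a median of 0.32 and 4 without overlap between the groups (Cd68, Mrc1, Msr1 and Trem2), and 0 passed in edgeR. Of the 8 mesothelial markers 7 were above 0, with a median of 0.53 and 2 without overlap (Wt1 and Lrrn4), and 0 passed. Of all 17820 genes tested, 9287 were above 0 and 8533 below, with a median of 0.02. For 2444 of them every library labelled KO was above every library labelled WT, and for 2231 every one was below. The part of these cell types in the Elovl6 values was not tested.

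The enzymes that complete the elongation cycle lay closer to 0 than Elovl6. Hsd17b12, the ketoacyl reductase, had 173 ± 7.39 CPM in the libraries labelled KO and 211 ± 8.35 CPM in those labelled WT (log2 fold change -0.29 ± 0.09). Among the dehydratases, Hacd1 had 19.7 ± 2.59 CPM in the libraries labelled KO and 26.9 ± 1.43 CPM in those labelled WT (-0.45 ± 0.11), and Hacd2 stood at -0.27 ± 0.12. Hacd3, another of them, was on the other side of 0, with 39.1 ± 2.48 CPM in the libraries labelled KO and 32.4 ± 0.96 CPM in those labelled WT (0.27 ± 0.08). Tecr, the enoyl reductase, stood at -0.21 ± 0.11, and Tecrl had no count. Of 6 tested genes of the cycle, 0 passed in edgeR, and 4 were below 0 with a median of -0.24, where 47.9% of all genes tested were below 0 with a median of 0.02. DESeq2 called Hsd17b12 and Hacd1 lower (adjusted p 0.0300 and 0.0260), where it called 3.86% of all genes lower. Without KO 1, edgeR called Hacd1 lower (-0.56 ± 0.09, adjusted p 0.0329) and Hacd4, another dehydratase, higher. In that fit 3.49% of all genes were called lower and 2.08% higher.

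The list for supply of the substrates of Elovl6 had the lowest median fold change of the 7 lists of related genes. Fasn, whose product palmitate Elovl6 lengthens, had 751, 587 and 398 CPM in the libraries labelled KO, against 1700, 2280 and 3010 CPM in those labelled WT, with KO 3 lowest as for Elovl6 but WT 3 highest (log2 fold change -2.01 ± 0.29). Slc25a1, the mitochondrial citrate carrier, stood at -0.70 ± 0.11, the acetate-activating enzyme Acss2 at -0.82 ± 0.18, and Me1, the malic enzyme that makes NADPH, at -0.51 ± 0.12. Of 8 genes of substrate supply, 0 passed in edgeR (adjusted p of those named 0.0877 to 0.145). All 8 were below 0 before rounding, 6 of 8 with library size alone, and their median was -0.60, where 47.9% of all genes tested were below 0. Mlycd, at 0.00 after rounding, encodes malonyl-CoA decarboxylase, which uses malonyl-CoA up and does not supply it. DESeq2 called 5 of the 8 lower, where it called 3.86% of all genes lower. Without KO 1, edgeR called 3 of the 8 lower, namely Fasn (-2.24 ± 0.30, adjusted p 0.0256), Slc25a1 (-0.72 ± 0.12, adjusted p 0.0316) and Me1 (-0.61 ± 0.10, adjusted p 0.0330). In that fit 3.49% of all genes were called lower.

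Desaturases, which act on the same chains before or after elongation, went both ways. Scd2, a stearoyl-CoA desaturase, had 70.6 ± 12.2 CPM in the libraries labelled KO and 132 ± 33.2 CPM in those labelled WT (-0.90 ± 0.20). Fads3 stood at -1.09 ± 0.43 with overlapping groups, since KO 1 had 705 CPM and WT 1 684 CPM. Without KO 1 it stood at -1.76 ± 0.20 and was the only desaturase called in edgeR (adjusted p 0.0240), where 3.49% of all genes were called lower. Fads2, the delta-6 desaturase whose products Elovl5 lengthens, stood at 0.30 ± 0.12, and Fads6 at 0.58 ± 0.18. Of 8 desaturases, 0 passed in edgeR and 4 lay on each side of 0, with a median of -0.17. DESeq2 called 1 (Scd2) lower and 0 higher, where it called 3.86% of all genes lower and 2.61% higher.

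Ceramide synthases, which join acyl chains to sphingoid bases, had their largest difference between the labels in Cers4. It had 41.8, 39.8 and 41.5 CPM in the libraries labelled KO, against 64.4, 58.5 and 64.8 CPM in those labelled WT (log2 fold change -0.61 ± 0.08, adjusted p 0.0877 in edgeR). The groups were far apart relative to their spread, with every library labelled KO under 42 CPM. Cers2, which prefers the chains that Elovl1 makes, stood at -0.20 ± 0.09, Cers5 at -0.17 ± 0.08 and Cers6 at -0.08 ± 0.09, the last of which turned to 0.04 with library size alone. Of 4 tested, 0 passed in edgeR, and the median was -0.19. DESeq2 called Cers4 alone among them (adjusted p 1.35e-07), as did edgeR without KO 1 (-0.62 ± 0.09, adjusted p 0.0262). Of all genes, DESeq2 called 3.86% lower and edgeR without KO 1 called 3.49% lower.

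Genes that take very long chains apart in peroxisomes were mostly below 0, at 9 of 10 tested with a median of -0.28. Of all genes tested, 47.9% were below 0. With library size alone 8 of the 10 were below 0 with a median of -0.16, and 0 of them passed in edgeR in the main fit. Acaa1b, a peroxisomal thiolase, stood at -0.65 ± 0.16, Hsd17b4, the bifunctional enzyme, at -0.46 ± 0.13, Acaa1a at -0.29 ± 0.10 and Abcd3, a peroxisomal transporter, at -0.26 ± 0.09. DESeq2 called 2 of the 10 lower (Acaa1b and Hsd17b4), where it called 3.86% of all genes lower. Without KO 1, when edgeR called 3.49% of all genes lower, it called Acaa1b lower (-0.80 ± 0.14, adjusted p 0.0373). Acyl-CoA synthetases, which activate fatty acids before elongation, were spread around 0 with a median of 0.01 over 7 tested genes, of which 0 passed in edgeR. Acsl3 stood at -0.56 ± 0.16 and Slc27a4 at -0.35 ± 0.15. Acsl1, the main synthetase of fat, stood at -0.18 ± 0.31 and Acsbg1 at 0.41 ± 0.65. DESeq2 called 1 of the 7 (Acsl3) lower. Without KO 1, edgeR called Acsl3 (-0.77 ± 0.10, adjusted p 0.0245) and Slc27a4 (-0.54 ± 0.10, adjusted p 0.0371) lower.

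Srebf1 and Mlxipl, which encode transcription factors known to drive Elovl6, overlapped between the labels. KO 1 was the highest library for each, at 266 CPM for Srebf1 and 29.3 CPM for Mlxipl. KO 2 (183 and 21 CPM) and KO 3 (173 and 22.3 CPM) lay below the means of the libraries labelled WT. Srebf1, which encodes SREBP1, had 207 ± 51.2 CPM in the libraries labelled KO and 187 ± 17.9 CPM in those labelled WT (0.15 ± 0.18), and Mlxipl, which encodes ChREBP, had 24.2 ± 4.44 and 22.9 ± 4.0 CPM in the libraries labelled KO and WT (0.08 ± 0.17). Both are active after processing or on glucose, which transcript levels do not show. Pparg, the master factor of adipocytes, stood at 0.61 ± 0.14 and Mlx, the partner of ChREBP, at 0.53 ± 0.13, each without overlap between the groups. Thrsp, a lipogenic protein, stood at 0.48 ± 0.32 and Scap, the escort of SREBP, at -0.18 ± 0.09. Of 13 regulators, 0 passed in edgeR, 4 lay below 0 (2 with library size alone) and the median was 0.12. Of all genes tested, 47.9% lay below 0. DESeq2 called Pparg and Mlx higher and 0 lower, as did edgeR without KO 1 (Pparg 0.71 ± 0.12, adjusted p 0.0316, and Mlx 0.65 ± 0.10, adjusted p 0.0312). Of all genes, DESeq2 called 2.61% higher and edgeR without KO 1 called 2.08% higher.

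**Figure D4:**
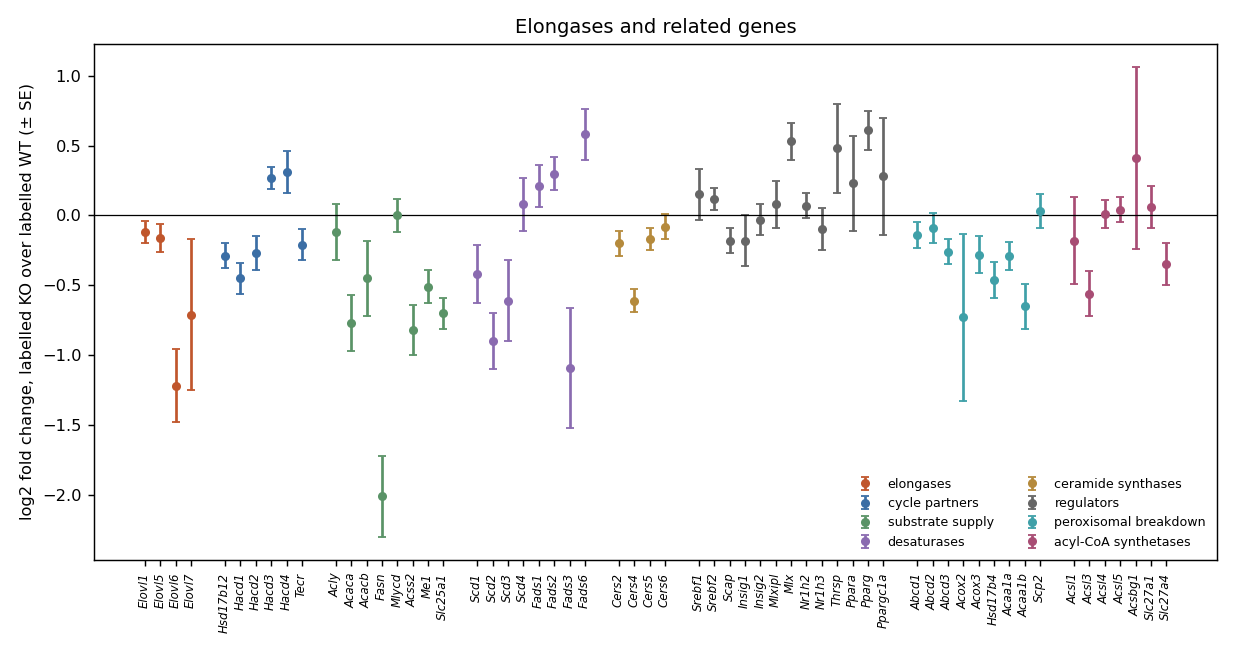
Log2 fold change (labelled KO over labelled WT, ± SE) of the 4 tested elongases and of tested genes in 7 lists of related genes, coloured by list. Of the genes drawn, Fasn at -2.01 alone lies below Elovl6 at -1.22, while the cycle partners lie between -0.45 and 0.31.

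The bases before the starts of Elovl6 and Elovl5 are shown because the first had the largest difference between the labels and the second the highest level. Both are the 250 bases upstream of the RefSeq start in GRCm38.p6, on the plus strand and 5′ to 3′, at chr3:129532136-129532385 for Elovl6 and chr9:77917115-77917364 for Elovl5. Capitals mark matches on either strand to any of 5 motifs. They are the sterol regulatory element spelled TCACNCCAC, the E-box spelled CACGTG, the CCAAT box, the GC box spelled GGGCGG and the TATA box spelled TATAAA.
Elovl6: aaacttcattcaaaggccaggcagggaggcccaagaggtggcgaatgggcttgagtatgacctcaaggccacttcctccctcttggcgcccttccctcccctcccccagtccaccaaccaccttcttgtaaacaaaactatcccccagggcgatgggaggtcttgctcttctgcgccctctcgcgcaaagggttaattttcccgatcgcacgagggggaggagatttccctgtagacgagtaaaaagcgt
Elovl5: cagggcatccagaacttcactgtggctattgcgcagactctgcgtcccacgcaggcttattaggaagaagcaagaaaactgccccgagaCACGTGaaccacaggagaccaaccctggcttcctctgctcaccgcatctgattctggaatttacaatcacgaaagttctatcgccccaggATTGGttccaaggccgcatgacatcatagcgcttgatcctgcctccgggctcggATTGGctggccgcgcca

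None of the 5 motifs was in the Elovl6 window, of which 56.4% is G or C. The Elovl5 window, 55.6% G or C, held an E-box starting 161 bases before the start and 2 CCAAT boxes, 71 and 17 bases before it. RefSeq windows were matched for 6 members (8 windows, since Elovl1 and Elovl2 have 2 each), and none was matched for Elovl3. TCACNCCAC was in 0 of the 8 windows and in 1.05% of 32851 windows of all genes, CACGTG in 1 (6.02% of all), CCAAT in 2 (33.8%), GGGCGG in 5 (32.7%) and TATAAA in 0 (12.4%). In the first Elovl1 window a CCAAT box overlaps a GC box. A window without these letters says nothing about binding elsewhere at the gene.

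The tested elongases varied together across the 6 libraries, apart from Elovl5. Pearson's r of log2 CPM over 6 libraries was 0.94 for Elovl1 and Elovl6, 0.85 for Elovl6 and Elovl7 and 0.86 for Elovl1 and Elovl7. With Elovl5 it was 0.21 for Elovl1, 0.30 for Elovl6 and -0.17 for Elovl7. These are descriptions of the same 6 libraries, whose label difference and low KO 3 values enter each r. The 3 genes most like Elovl6 among 12818 were Gna12 (r = 0.997), which encodes a G protein alpha subunit, Pgk1-rs7 (0.994) and Alg3 (0.994), a mannosyltransferase of glycan assembly. Their range was narrower than that of Elovl6: Gna12 had 28.8, 28.1 and 23.3 CPM in the libraries labelled KO, against 33.2, 36.2 and 33.8 CPM in those labelled WT. Those most like Elovl1 were Pon2 (0.992), Hectd2os (0.988) and Prkar1b (0.987). Those most like Elovl5 were Efnb2 (0.986), Dld (0.979) and Rin3 (0.973), and those most like Elovl7 were Shkbp1 (0.993), Cc2d1b (0.986) and Vps52 (0.984). None of the 12 stayed among the 3 most like its member after each group was centred on its own mean, though their r then remained 0.96 to 0.99.

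Some counts can hold reads of other genes. In GENCODE vM21 the end of Elovl1 overlaps Cdc20 and the end of Elovl3 overlaps Pitx3 on the opposite strand, the start of Elovl6 touches the antisense gene Gm35986, and Gm43072, a transcript still to be experimentally checked, lies inside Elovl6 on the same strand (129538141 to 129539811). Processed pseudogenes lie within Elovl7. Gm11295, annotated there as a processed pseudogene, is 97.4% identical to Elovl6 over 805 bases. This copy had 2, 0 and 0 counts in the libraries labelled KO and 3, 6 and 3 in those labelled WT, where Elovl6 had at least 423 counts in each library.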

How the data were processed

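The authors deposited 1 table of 45777 genes, which per the file headers holds read counts, FPKM and TPM for each of 6 libraries. The deposited counts are whole numbers per gene without normalization and entered the tests. The deposited TPM values, scaled by the authors for length and depth, gave levels between genes, and the deposited FPKM values give the same shares by construction, so they are no test of them. Libraries were made from whole tissue with a stranded mRNA kit, per the labels' protocols. The submitters' processing notes list StringTie 2.1.3b, HISAT2 2.1.0, Bowtie2 2.3.4.1 and the build mm10, without roles. The use of strand in counting and the handling of reads with several matches are not given in the sources used here.

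Libraries were grouped by title. The filter filterByExpr (minimum count 10, minimum total 15) left 17820 genes. These were scaled by TMM and tested over all of them in edgeR 4.0.16 (R 4.3.3; robust glmQLFit and glmQLFTest, two-sided, Benjamini-Hochberg, threshold 0.05). A standard error is the fold change divided by the square root of F. The biological coefficient of variation was 0.200. Log2 CPM used a prior count of 2. DESeq2 1.42.0, limma 3.58.1 and other settings were alternatives, and the scripts were checked on simulated counts. No pair of libraries agreed within sampling noise (lowest chi-square 50.0 per degree of freedom). Same-numbered libraries did not deviate together (r = -0.17, -0.02 and 0.05), so the number was not used as a block. At these depths 3 counts are 0.0403 to 0.0490 CPM. Sequences are from RefSeq (GRCm38.p6) and GENCODE vM21 (GRCm38), and similar transcripts were sought with BLAST 2.17.0 (at least 90% identity over 150 bases). No set test was run. A result for 1 gene is not reported here.

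The members and gene lists were chosen with earlier results of these data known. All members and Pak4 are named, with any called gene and up to 4 of smallest p from each list of related genes, and the 3 genes with the highest r to each member with at least 1 CPM. Others (Adipoq, Ucp1, Zic1, Lpl, Lep, Tecrl, Srebf1, Mlxipl, Mlycd, Tecr, Hacd4, Gm11295, the overlapping genes and cell type markers) were named after their values were seen.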

Additional observations from a re-analysis of the deposited data

How the results depend on the processing

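The 4 elongase fold changes kept their direction and stayed short of the threshold in 59 of 60 comparisons with an alternative. The exception was Elovl6 with DESeq2, at -1.23. Elovl1 was 0.00 after rounding with library size alone, so its direction there is counted as kept by its unrounded sign only. The number of genes past the threshold, 3, was 1152 with DESeq2, 5 with limma voom and 1 to 1016 with 1 library left out, the highest without KO 1, where Elovl6 had an adjusted p of 0.0562 in edgeR. It was 1 without KO 3, WT 2 or WT 3, and 5 without WT 1. With the replicate number as a block it was 1, and 1 of 6 libraries deviated most like its own number in the other group. Under library size alone the median of all genes shifted by 0.12 on the log2 scale, and Cers6 (0.04) and Efnb2 (0.02) changed sign. With 1 library left out, Acsbg1 ran from -0.25 to 1.14 and Acsl1 from -0.47 to 0.12. On log2(TPM + 1) with limma, Elovl6 was -0.97 and Elovl7 -0.44. Without a filter Elovl2 and Elovl4 stood at -0.42 and -0.34. The cause of these changes was not tested. With 3 libraries a group, Elovl7 and the members with at most 15 counts are limited most.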

Other observations

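The low Elovl7 value in the library labelled KO 3 was rare for that library. Of 14014 genes with a mean of at least 1 CPM, 7 were more than 4-fold below the lowest of the other 5 libraries in KO 3, among them Elovl7. In the other libraries this number was 0 for KO 1, 3 for KO 2, 2 for WT 1, 6 for WT 2 and 1 for WT 3. This count was chosen after the data were seen.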
